A study of Mus musculus with 20 samples.

Results

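The Slc25 genes encode the mitochondrial carriers, and 42 of the 29915 rows in the count table carry a symbol made of Slc25a and a number, with Slc25a15 and Slc25a20 not analysed here. The members were chosen by symbol, with earlier results of these data known. Their RNA was measured in livers of male mice on a chow diet, housed with 12 h of light a day. The study compared wild-type livers with livers carrying Prox1 K556R, a form of the transcription factor Prox1 that cannot be SUMOylated at that lysine, and livers of fasted mice with livers of refed mice. The knock-in is conditional and hepatocyte-specific, so other liver cells keep wild-type Prox1. Mice were 8 weeks old when Cre switched the mutant form on, and 11 weeks passed before collection at zeitgeber time 15 to 17. The 4 groups are wild type fasted, wild type refed, K556R fasted and K556R refed, with 5 libraries each. The titles call the wild-type livers Ctrl and the K556R livers Cre, so Cre recombinase itself and the K556R substitution cannot be told apart. The sources used here do not say how Cre was delivered. The labels number repeats and do not tie them to animals, so p-values measure the spread between these libraries.

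Mitochondrial carriers are small proteins, most of them in the inner mitochondrial membrane. Each alternates between a state open to the intermembrane space and a state open to the matrix, and most exchange a solute on one side for a solute on the other. They link the matrix to the cytosol for nucleotides, phosphate, citric acid cycle intermediates, amino acids, cofactors and metals. In liver they serve gluconeogenesis, urea synthesis and fatty acid synthesis, pathways that follow fasting and feeding. Slc25a46 is an exception, since it lies in the outer membrane.

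Of the 42 members, 37 had enough counts to be tested, and 18 of these gave the same call in both genotypes after refeeding: 13 lower and 5 higher. Over all genes tested, 24.2% were lower and 20.9% higher in wild type, and 20.3% and 19.6% in K556R. Of 9190 tested genes with a promoter, 1732 were lower in both genotypes. Promoter sequences are shown for 6 of the members lower in both. Of those with a promoter, these had the lowest p in edgeR's test of refeeding in wild type. Slc25a30 and Slc25a34 are both grouped below with the carriers of citrate, phosphate, dicarboxylates and related anions. Shared regulation of the members shown was not tested. RefSeq (GRCm38.p6) had promoters for 32 of the 42 members, counting 40 start sites. The 5 motifs were searched on both strands and in the 250 bases before each start. They were CACGTG (an E-box), TGACGTCA (the cyclic AMP response element), GCATGC (the NRF1 core), AGGTCA (a nuclear receptor half-site) and ATTGG (the reverse complement of the CCAAT box). Matches are in capitals in the 160 bases before a start, and every gene shown lies on the minus strand. For a gene with several starts the window with the most motif letters is shown.
Slc25a25, chr2:32424067-32424226: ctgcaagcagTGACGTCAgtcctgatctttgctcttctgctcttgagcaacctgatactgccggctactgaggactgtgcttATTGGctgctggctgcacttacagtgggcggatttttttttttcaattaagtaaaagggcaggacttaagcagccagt
Slc25a30, chr14:75787038-75787197: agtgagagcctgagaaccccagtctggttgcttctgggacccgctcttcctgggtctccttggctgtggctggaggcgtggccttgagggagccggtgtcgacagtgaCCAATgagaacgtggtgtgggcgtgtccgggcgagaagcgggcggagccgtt
Slc25a33, chr4:149774268-149774427: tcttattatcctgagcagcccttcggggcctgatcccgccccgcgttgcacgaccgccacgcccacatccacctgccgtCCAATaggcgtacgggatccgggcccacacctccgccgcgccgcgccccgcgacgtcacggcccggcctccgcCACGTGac
Slc25a34, chr4:141623835-141623994: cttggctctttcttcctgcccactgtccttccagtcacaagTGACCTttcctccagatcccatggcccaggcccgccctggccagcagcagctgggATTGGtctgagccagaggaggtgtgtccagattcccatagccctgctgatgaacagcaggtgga
Slc25a22, chr7:141435376-141435535: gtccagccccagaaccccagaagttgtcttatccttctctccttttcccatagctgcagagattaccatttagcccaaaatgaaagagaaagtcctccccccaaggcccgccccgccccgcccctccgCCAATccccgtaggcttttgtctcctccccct
Slc25a42, chr8:70212282-70212441: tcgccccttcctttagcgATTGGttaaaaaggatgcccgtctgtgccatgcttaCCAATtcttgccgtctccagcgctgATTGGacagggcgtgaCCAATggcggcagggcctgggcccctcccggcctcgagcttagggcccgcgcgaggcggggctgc
Each of the 6 windows holds the CCAAT letters, and Slc25a42 holds them at 4 places in this window. For Slc25a25 and Slc25a22 the window was picked for its matches, so a match there was partly set by that choice. The windows of Slc25a30 and Slc25a34 lie outside the gene's GENCODE M21 body. Those of Slc25a33 and Slc25a42 reach 10 and 24 bases into the first exon. Slc25a25 and Slc25a22 have 3 RefSeq starts each, and the windows shown lie inside the gene body. That of Slc25a25 touches no exon of its gene, and that of Slc25a22 overlaps exons by 22 bases.

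The CCAAT letters were present for 9 of the 9 members lower in both genotypes that have a promoter, these 6 with Slc25a13, Slc25a28 and Slc25a29. They were present for 17 of all 32 members with a promoter. A member counts if any of its starts has a match. Counted by start, the letters were present at 11 of 13 starts of members lower in both and at 20 of 40 starts of all members. Over all 32851 promoters the share was 33.8%, it was 40.6% of the 9190 tested genes with a promoter, and it was 39.0% of the 1732 tested genes lower in both genotypes. The other motifs were rarer. CACGTG was found for 6 of 32 members and 9.89% of tested genes with a promoter, TGACGTCA for 2 members and 2.94% of those genes, GCATGC for 2 and 9.78%, and AGGTCA for 4 and 13.4%. Of all promoters the shares were 6.02%, 1.55%, 6.70% and 14.0%. Among the 9 members lower in both, TGACGTCA was found for Slc25a25 alone, 150 bases before the start shown. A match says only that these letters lie in the window.

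Total counts ran from 33746054 to 50647297 per library, and the 42 members took 0.309% to 0.423% of them. In bulk liver, fewer cells of a type and less RNA per cell cannot be told apart. Mean Prox1 was lower in K556R livers. In fasted livers it was 105 ± 15.7 CPM (counts scaled to 1 common library total, SD, n = 5) against 185 ± 38.5 in wild type. In refed livers it was 75.5 ± 12.1 against 110 ± 15.7. Prox1 passed in neither state alone, since edgeR's test called 0 of 13894 genes in fasted livers and 0 in refed livers. Averaged over feeding states the log2 change of Prox1 was -0.72 (SE 0.10, edgeR adjusted p = 0.00563). It did not pass in batch 1 alone (-0.71, adjusted p = 0.326), with a replicate block (-0.70, adjusted p = 0.177) or without the 2 K556R libraries named next and wild type fasted repeat 1 of batch 2 (-0.76, adjusted p = 0.0805), and the counts do not show the substitution itself. Feeding markers separated the states: Pck1, of gluconeogenesis, changed by -2.78 and -2.34 on the log2 scale in wild-type and K556R livers, and Srebf1, of lipid synthesis, by 2.45 and 2.48. Hepatocyte markers summed to 100342 to 139204 CPM in wild-type fasted and 104807 to 112191 CPM in wild-type refed livers. In K556R they summed to 125327 to 133395 CPM fasted and 101482 to 114442 CPM refed, without overlap. Of 7 hepatocyte markers 3 were lower after refeeding in each genotype and 1 was higher in wild type, and their part in the carriers' changes was not tested. Beside these and the endothelial markers below, 24.2% of all genes tested were lower and 20.9% higher in wild type, and 20.3% and 19.6% in K556R. Repeat 1 of batch 1 stood apart in both K556R groups, with proliferation genes summing to 18.8 CPM fasted and 48.3 CPM refed against 6.54 to 10.6 in the other libraries. Lymphocyte markers were also highest there, at 5.27 and 6.10 CPM against 0.692 to 2.80 elsewhere. Without these libraries Slc25a17 (0.18, adjusted p = 0.0431), Slc25a24 (-0.48, adjusted p = 0.0498) and Slc25a5 (0.15, adjusted p = 0.0471) also passed edgeR's test for refeeding in wild type, and other calls that changed are given where the member is described. Endothelial markers summed to 96.9 to 165 CPM in wild-type fasted and 115 to 136 CPM in wild-type refed livers, and to 136 to 154 and 115 to 154 CPM in K556R. Of these 8 markers 3 were lower after refeeding in wild type and 2 in K556R, with 0 higher, and their part was not tested either. Samples came in 2 batches, 14 libraries in batch 1 and 6 in batch 2, and batch was a term of the model.

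Levels between carriers were compared per kb of exon, with each base of any annotated exon of the gene counted once. An order between carriers therefore depends on that length. Slc25a5, the main ADP/ATP exchanger of many tissues, stood highest at 261 CPM per kb averaged over all libraries. Slc25a39, a glutathione carrier, followed at 135, and then Slc25a1, the citrate carrier, at 79.0 and Slc25a13, the aspartate/glutamate carrier citrin of the malate-aspartate shuttle, at 73.6. Slc25a23, Slc25a10, Slc25a3 and Slc25a25 came next, between 57.1 and 45.7 CPM per kb. The lowest tested member was Slc25a36 at 0.0947. Values by library are given throughout in the order of repeats 1 to 4 of batch 1 and then batch 2. For K556R refed the order is repeats 1 and 2 of batch 1 and then repeats 1 to 3 of batch 2. Slc25a5 had 406, 429, 372, 449 and 390 CPM fasted and 452, 444, 478, 444 and 445 refed in wild type, and 417, 411, 445, 418 and 456 fasted and 363, 435, 469, 453 and 428 refed in K556R. Slc25a39 had 359, 352, 357, 360 and 349 CPM fasted and 403, 396, 357, 341 and 353 refed in wild type, and 332, 346, 369, 428 and 401 fasted and 296, 446, 392, 364 and 425 refed in K556R. For both carriers the fasted and refed libraries overlapped in each genotype, and edgeR's test called neither. Per kb, the order of Slc25a13 and Slc25a1 depended on feeding: wild-type fasted livers had 83.5 ± 4.19 CPM per kb of Slc25a13 and 71.5 ± 6.17 of Slc25a1, and refed livers 66.8 ± 5.04 and 86.7 ± 4.06. In K556R fasted livers the levels, 78.9 ± 7.21 and 72.5 ± 6.37, lay within their spread of each other. Without division by length, mean CPM of Slc25a13 was above that of Slc25a1 in each group, at 317 and 155 in wild-type fasted livers and 254 and 188 in wild-type refed livers.

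**Figure D1:**
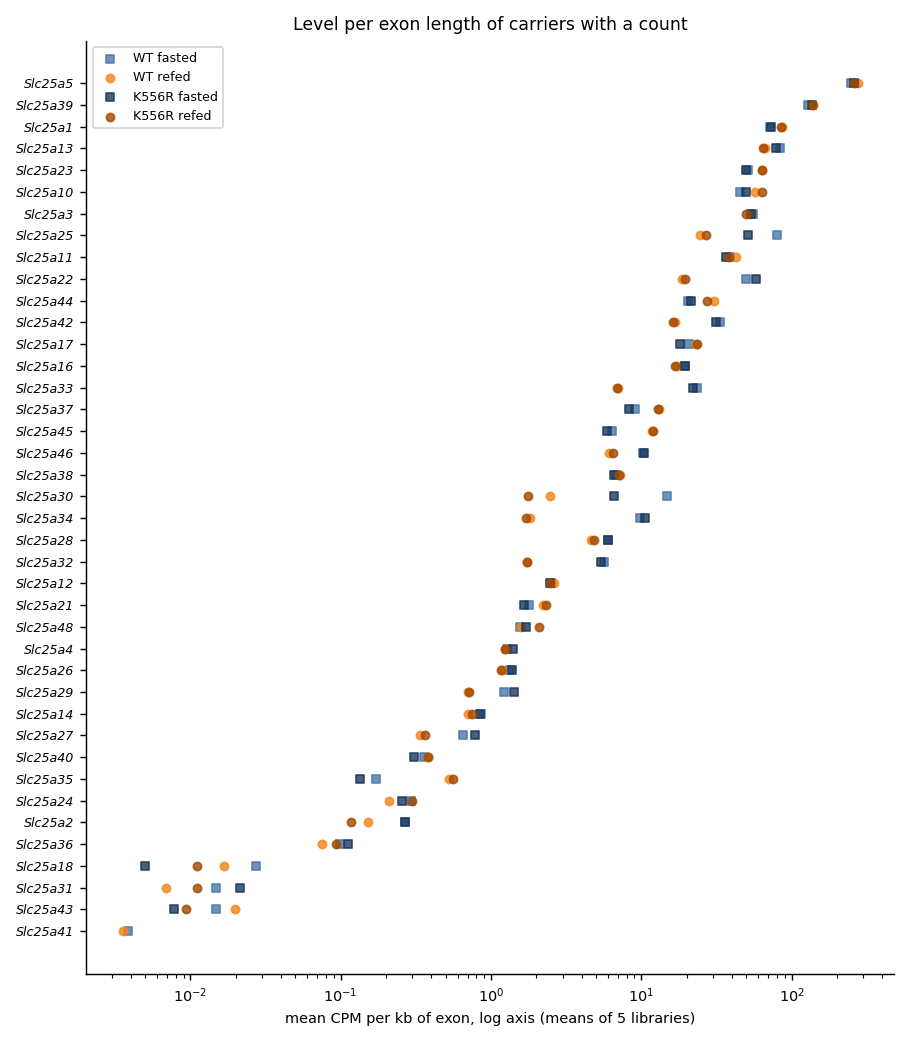
Mean CPM per kb of exon (log axis) of carriers with a count, 1 left out, with 1 point per group of 5 libraries, squares for fasted and circles for refed. Slc25a5 is highest near 261 on average, members such as Slc25a30, Slc25a34 and Slc25a32 have refed circles far left of their fasted squares, and a group with no count of Slc25a41 has no point.

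The 5 members not tested were close to absent from these counts. Slc25a18, a glutamate carrier, had 24 counts in all 20 libraries together, Slc25a31, the ADP/ATP carrier known from testis, had 25, Slc25a43 had 19 and Slc25a41 had 2. Slc25a47 had 0 counts in every library, and the 3 counts that a count of 0 allows come to 0.00353 CPM over all libraries. That limit covers counting error only. Its older symbol has a row of its own with counts.

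More carriers were lower than higher after refeeding. In wild-type livers 13 of the 37 tested members were lower and 6 higher in refed than in fasted mice (edgeR quasi-likelihood test, adjusted p under 0.05), or 35.1% and 16.2% of members. Over all 13894 genes tested, 24.2% were lower and 20.9% higher. In K556R livers 15 were lower and 7 higher, or 40.5% and 18.9%, against 20.3% and 19.6% of all genes. The median log2 change of the members was -0.16 in wild type and -0.15 in K556R, beside -0.01 and 0.01 for all genes. The share of members higher was near that of all genes, and the share lower was above it. The changes ranged from -2.60 to 1.61 in wild type and from -2.52 to 2.04 in K556R.

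The directions were mostly shared by the genotypes. Of the 37 members, 35 had the same sign in both genotypes, 13 were called lower in both, 5 were called higher in both, and 0 were called in opposite directions. Lower in both were 9 of the 32 members with a promoter, tested or not, and 1732 of 9190 tested genes with a promoter. Genes of the same sign or higher in both were not counted over all genes, so this agreement is not shown to be particular to carriers. Across members the log2 changes had a Pearson r of 0.955, given as a description, since members are not replicates and share the libraries' depth and scaling. Within batch 1 alone all 19 wild-type and all 22 K556R calls kept their sign, with 18 and 15 still called. In batch 2 alone all again kept their sign. Batch 2 holds 1 library per group except 3 for K556R refed, so its spread comes from those 3 alone, and its values are given below without a test. Summed counts of the family overlapped between fasted and refed libraries in both genotypes: the members took 0.367% ± 0.0337 of counts in wild type fasted and 0.325% ± 0.00849 refed, and 0.344% ± 0.0159 and 0.325% ± 0.0135 in K556R (SD, n = 5). Slc25a25 alone, with 10.2% of the family's counts, went from 628 to 194 CPM in wild type.

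**Figure D2:**
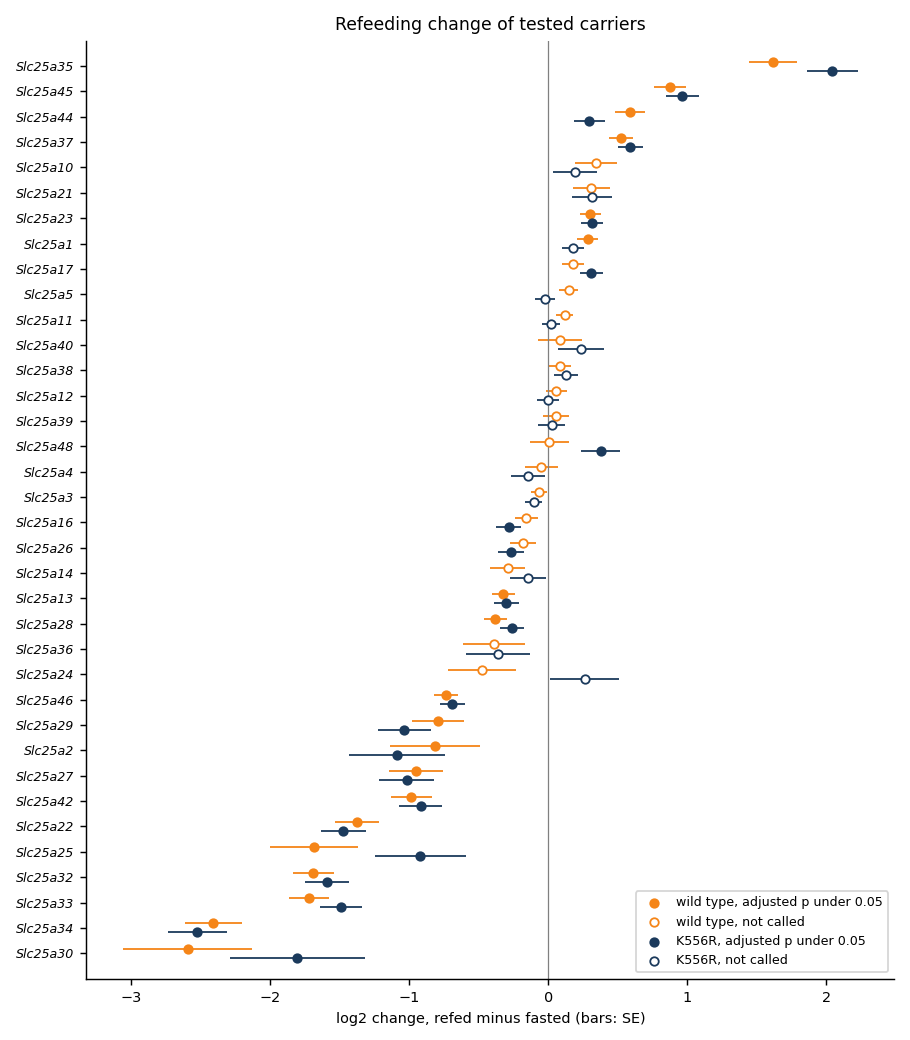
Log2 change, refed minus fasted, of the tested carriers, 1 left out, with SE bars, in wild type (orange) and K556R (dark blue), filled where the edgeR adjusted p was under 0.05. The members run from Slc25a35 at the top, at 1.61 and 2.04, to Slc25a30 at the bottom, at -2.60 and -1.81, and the genotypes lie close for most.

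Of the 7 cofactor and nucleotide carriers, 3 were lower after refeeding in wild type and none was higher, with a median log2 change of -0.39 against -0.01 for all genes. In K556R 4 were lower and 1 higher, with a median of -0.36. For this group and the carrier groups that follow, the shares of all genes were 24.2% lower and 20.9% higher in wild type. In K556R those shares were 20.3% and 19.6%, and the groups were not tested against them. Slc25a33 (chr4:149744036-149774277, GENCODE M21 on GRCm38, as for the positions that follow) imports pyrimidine nucleotides, which mitochondria need for their own DNA and RNA. Its level was 38.1, 42.8, 57.6, 57.3 and 26.2 CPM in wild-type fasted livers and 14.5, 12.8, 14.4, 12.4 and 11.7 in refed ones. K556R fasted livers had 40.7, 41.2, 50.7, 47.4 and 28.9 CPM, and refed livers had 12.4, 15.6, 11.6, 10.4 and 14.8. Every refed library lay below every fasted library of its genotype. The log2 change was -1.72 (SE 0.14, edgeR adjusted p = 2.84e-08) in wild type and -1.49 (SE 0.15, adjusted p = 4.48e-07) in K556R. It was -1.85 and -1.16 within batches 1 and 2 in wild type and -1.69 and -1.23 in K556R, and the batch 2 fasted libraries were the lowest of their groups.

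Slc25a32 (chr15:39091231-39112716) carries folate, or by other accounts FAD, into mitochondria. Fasted wild-type livers had 32.0, 34.9, 33.3, 41.3 and 28.8 CPM, and refed livers had 10.8, 11.7, 9.05, 9.99 and 11.0. K556R fasted livers had 35.3, 31.5, 41.7, 33.1 and 22.9, and refed livers 10.8, 7.47, 11.3, 12.9 and 10.6. The groups did not overlap in either genotype, and the refed means were close to each other, at 10.5 ± 1.02 and 10.6 ± 1.97 (SD, n = 5). The log2 change was -1.69 (SE 0.15, edgeR adjusted p = 4.25e-08) in wild type and -1.60 (SE 0.16, adjusted p = 3.12e-07) in K556R, with -1.77 and -1.38 within batches 1 and 2 in wild type and -1.95 and -0.98 in K556R.

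Slc25a42 (chr8:70184340-70212305) carries coenzyme A into the matrix. Its level was 179, 145, 288, 209 and 181 CPM in wild-type fasted livers and 117, 99.6, 101, 94.8 and 93.0 in refed ones. In K556R it was 152, 203, 177, 219 and 197 fasted and 82.2, 125, 92.4, 94.9 and 92.7 refed. Refed libraries again lay below all fasted ones of their genotype, with log2 changes of -0.99 (SE 0.15, edgeR adjusted p = 2.23e-05) and -0.92 (SE 0.15, adjusted p = 9.66e-05). The related carrier Slc25a16 changed by -0.16 (adjusted p = 0.13) in wild type and fell by 0.28 (adjusted p = 0.016) in K556R. Without K556R refed repeat 1 of batch 1 the K556R change of Slc25a16 was -0.25 (adjusted p = 0.0548), and without repeat 2 of that group and batch it was -0.18 (adjusted p = 0.107). It was -0.48 in batch 1 alone (edgeR adjusted p = 0.00291) and -0.004 in batch 2 alone. The K556R call of Slc25a16 was also lost with limma (-0.23, adjusted p = 0.0597) and with edgeR without a batch term (-0.21, adjusted p = 0.0810). Slc25a17, the peroxisomal carrier of coenzyme A and related cofactors, was higher after refeeding in K556R. It had 43.9, 54.7, 59.8, 48.5 and 48.9 CPM in K556R fasted livers and 55.7, 63.3, 73.2, 70.8 and 68.8 in refed ones (log2 change 0.31, SE 0.08, adjusted p = 0.00573). In wild type it had 51.4, 54.7, 61.5, 60.6 and 65.3 CPM fasted and 64.1, 64.7, 63.0, 67.3 and 72.2 refed (0.18, adjusted p = 0.0749). The Slc25a17 groups overlapped in both genotypes, and within batch 1 alone the K556R change was 0.20 with adjusted p = 0.20. Slc25a36, the other pyrimidine nucleotide carrier, did not pass the test in either genotype, at -0.39 in wild type and -0.36 in K556R.

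Among the carriers of adenine nucleotides, the ATP-Mg/phosphate carriers, which calcium regulates and which set the matrix pool of adenine nucleotides, moved apart. Of 5 tested members of the adenine nucleotide group, 1 was higher and 1 lower in each genotype. Slc25a25 (chr2:32414487-32451445) had 324, 562, 994, 818 and 441 CPM in wild-type fasted livers and 123, 260, 152, 192 and 243 in refed ones. In K556R it had 294, 447, 430, 449 and 401 fasted and 264, 173, 111, 197 and 308 refed. The wild-type groups did not overlap, while 1 K556R refed library of batch 2 was above the lowest fasted library. The log2 change was -1.69 (SE 0.32, edgeR adjusted p = 3.11e-04) in wild type and -0.92 (SE 0.32, adjusted p = 0.0319) in K556R. In batch 2 alone it was -0.85 and -0.96. In K556R it did not pass in batch 1 alone (-0.89, adjusted p = 0.12), nor in 8 of the 20 fits that left out 1 library.

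Slc25a23 (chr17:57043711-57059863), a close relative, rose. Wild-type fasted livers had 271, 264, 268, 258 and 302 CPM and refed livers 336, 356, 329, 336 and 323. K556R livers had 234, 309, 265, 248 and 267 CPM fasted and 292, 351, 348, 321 and 372 refed, and 1 fasted library overlapped the refed range. The log2 changes were 0.30 (SE 0.08, edgeR adjusted p = 0.00241) and 0.32 (SE 0.08, adjusted p = 0.00305). Within batch 2 the wild-type change was 0.11, and within batch 1 the K556R change was 0.28 (adjusted p = 0.062). Slc25a24, the third ATP-Mg/phosphate carrier, was near 1 CPM, with 1.01 ± 0.231 fasted and 0.723 ± 0.0547 refed in wild type and 0.879 ± 0.164 and 1.02 ± 0.440 in K556R, and did not pass the test in either. The ADP/ATP exchangers Slc25a5 and Slc25a4, which hand matrix ATP to the cytosol, changed by 0.15 and -0.05 in wild type and by -0.02 and -0.15 in K556R, none past the threshold. Slc25a4, the form known from heart and muscle, stood at 1.29 CPM per kb against 261 for Slc25a5.

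The 8 carriers of citrate, phosphate, dicarboxylates and related anions held the largest changes in both directions. In wild type 2 were higher and 2 lower, and in K556R 1 was higher and 2 lower, with group medians of 0.20 and 0.10. Slc25a34 (chr4:141618824-141623821), a little-known relative of the oxaloacetate and dicarboxylate carriers, had 23.4, 27.0, 33.4, 31.5 and 14.7 CPM in wild-type fasted livers and 5.65, 5.203, 4.11, 4.41 and 4.74 in refed ones. K556R livers had 23.5, 18.9, 32.2, 39.1 and 26.6 fasted and 3.73, 5.42, 4.82, 4.77 and 4.09 refed. The highest refed library, at 5.65 CPM, was far below the lowest fasted one. The log2 changes were -2.41 (SE 0.20, edgeR adjusted p = 4.46e-08), a fold of 0.188, and -2.52 (SE 0.21, adjusted p = 8.08e-08), a fold of 0.174. Within batches 1 and 2 it was -2.57 and -1.63 in wild type and -2.64 and -2.54 in K556R, and it passed in batch 1 alone in each genotype.

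Slc25a35 (chr11:68968131-68974365), its close relative in the family, moved the opposite way from a much lower level. Wild-type fasted livers had 0.530, 0.741, 0.690, 0.361 and 0.818 CPM and refed livers 2.18, 2.16, 1.84, 1.85 and 1.66. K556R fasted livers had 0.495, 0.436, 0.568, 0.454 and 0.503 and refed livers 2.23, 1.95, 2.14, 1.93 and 2.01. The groups did not overlap, and the folds were 3.06 and 4.13, with log2 changes of 1.61 (SE 0.17, edgeR adjusted p = 3.25e-07) and 2.04 (SE 0.18, adjusted p = 8.02e-08). In batch 2 alone the wild-type change was 1.03. Slc25a35 shares exon sequence on the opposite strand with Rangrf, whose own row changed by 0.77 (adjusted p = 0.00161) in wild type and 0.40 (adjusted p = 0.0971) in K556R. No source used here gives the strand setting of the counts, so reads in the shared stretch cannot be told apart.

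**Figure D3:**
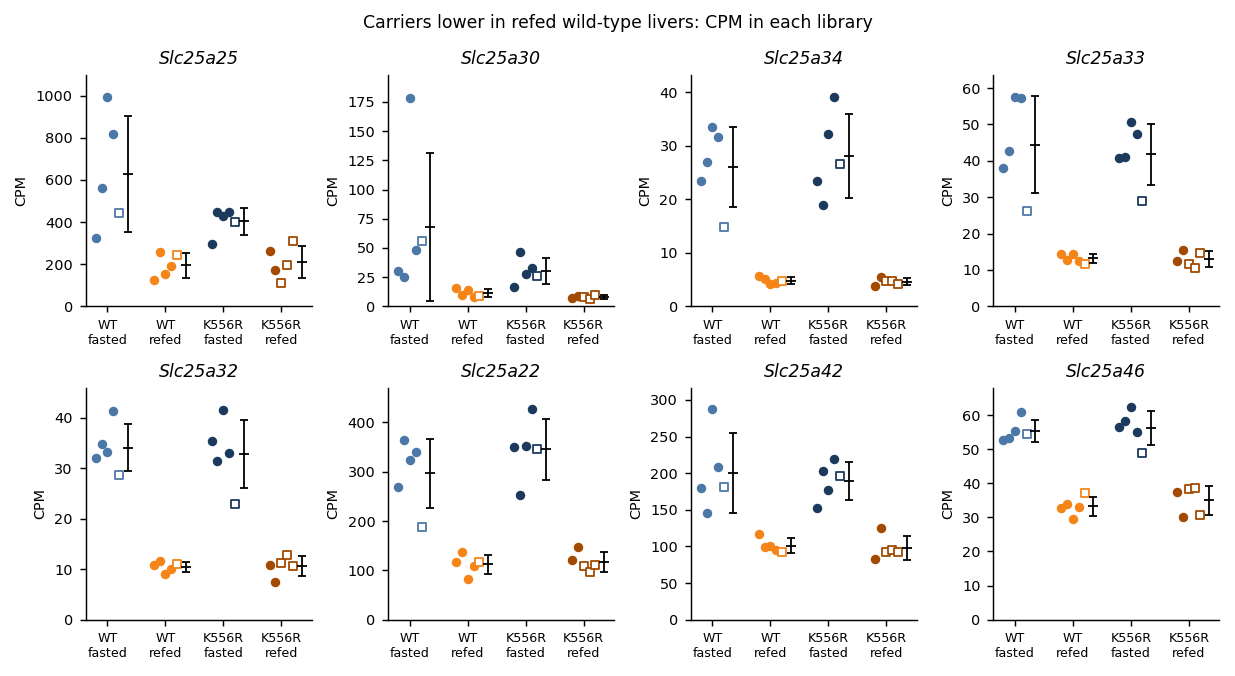
CPM of the 8 carriers with the lowest p among those lower in refed wild-type livers, 1 point per library (circles batch 1, open squares batch 2), with mean and SD of 5 libraries as a bar beside each group; each y axis starts at 0. Refed points lie below all fasted points of their genotype in every panel except Slc25a25 in K556R, and 1 wild-type fasted library stands alone at 179 CPM of Slc25a30.

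Slc25a30 (chr14:75760117-75787037) transports sulfur oxyanions and dicarboxylates by reconstitution assays and is known from kidney. Its levels were 30.6, 25.3, 179, 48.5 and 55.9 CPM in wild-type fasted livers and 15.6, 9.48, 14.1, 8.21 and 8.80 in refed ones. K556R fasted livers had 16.9, 46.9, 27.4, 33.1 and 26.0 and refed livers 7.20, 8.72, 8.21, 6.04 and 10.01. Refed libraries lay below fasted ones in both genotypes. The log2 change was -2.60 (SE 0.46, edgeR adjusted p = 2.37e-04) in wild type, and -1.83 without the library at 179 CPM. It was -1.81 (SE 0.48, adjusted p = 0.00699) in K556R, where batch 1 alone gave -1.96 with adjusted p = 0.080.

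Slc25a1 exports citrate, the source of cytosolic acetyl-CoA for fatty acid synthesis. It had 140, 144, 154, 164 and 172 CPM in wild-type fasted livers and 185, 199, 194, 183 and 177 in refed ones, without overlap. K556R livers had 140, 157, 148, 165 and 175 fasted and 147, 189, 191, 189 and 206 refed, where the library at 147 CPM is one of those that stand apart. The log2 change was 0.28 (SE 0.08, edgeR adjusted p = 0.00423) in wild type and 0.18 (adjusted p = 0.0862) in K556R, or 0.23 (adjusted p = 0.020) without repeat 1 of batch 1 in both K556R groups. The wild-type change in batch 2 alone was 0.05. Slc25a10, the dicarboxylate carrier, Slc25a21, the oxodicarboxylate carrier, Slc25a11, the oxoglutarate/malate carrier, and Slc25a3, the phosphate carrier, did not pass the test in either genotype. Their wild-type changes were 0.34 (adjusted p = 0.071), 0.31 (adjusted p = 0.065), 0.12 and -0.07. Without repeat 1 of batch 1 in both K556R groups Slc25a10 was called in both genotypes, at 0.34 (adjusted p = 0.00228) and 0.33 (adjusted p = 0.0125), and so was Slc25a21, at 0.31 (adjusted p = 0.0272) and 0.38 (adjusted p = 0.0318).

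Of the 2 tested members grouped here as relatives of the uncoupling proteins, 1 was lower in each genotype. Slc25a30, grouped above with the dicarboxylate carriers and lower in both genotypes, is paired below with Slc25a14 as a close relative. Slc25a27, also called UCP4 and known from brain, had 2.69, 2.94, 2.19, 3.14 and 1.92 CPM in wild-type fasted livers and 1.65, 1.38, 1.10, 1.04 and 1.42 in refed ones. K556R livers had 3.79, 2.18, 2.71, 3.53 and 3.08 CPM fasted and 2.19, 1.27, 1.26, 1.11 and 1.31 refed. The wild-type groups did not overlap, and in K556R the refed library at 2.19 CPM, repeat 1 of batch 1, was just above the lowest fasted one. The log2 changes of Slc25a27 were -0.95 (SE 0.20, edgeR adjusted p = 4.75e-04) and -1.02 (SE 0.20, adjusted p = 3.63e-04), and batch 2 alone gave -0.42 in wild type. Slc25a14 changed by -0.29 (adjusted p = 0.060) and -0.15 and did not pass.

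The 10 tested carriers of amino acids and related metabolites split into members lower and members higher. In wild type 4 were lower and 2 higher, in K556R 5 were lower and 3 higher, and the medians were -0.09 and -0.13. Slc25a22 (chr7:141429744-141437892) takes glutamate into mitochondria with protons. Wild-type fasted livers had 268, 365, 324, 339 and 188 CPM and refed livers 117, 137, 83.5, 108 and 117. K556R livers had 350, 252, 353, 426 and 345 fasted and 121, 148, 109, 96.5 and 110 refed. The groups did not overlap, with log2 changes of -1.38 (SE 0.16, edgeR adjusted p = 1.09e-06) and -1.47 (SE 0.16, adjusted p = 1.21e-06). The wild-type change was -1.54 within batch 1 and -0.68 within batch 2, where the fasted library was the lowest of its group.

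Other amino acid carriers fell less. Citrin, Slc25a13, went from 317 ± 15.9 to 254 ± 19.1 CPM in wild type (log2 change -0.32, SE 0.08, edgeR adjusted p = 0.0032) and from 300 ± 27.4 to 246 ± 29.6 in K556R (-0.30, SE 0.09, adjusted p = 0.00982). In batch 2 alone these were -0.22 and -0.05. Its relative Slc25a12, aralar, changed by 0.06 and 0.00. Slc25a29, a carrier of basic amino acids, had 3.31, 3.71, 2.85, 3.03 and 3.08 CPM in wild-type fasted livers and 1.90, 1.78, 1.52, 1.80 and 2.22 in refed ones. In K556R it had 2.62, 2.46, 3.82, 5.04 and 4.55 CPM fasted and 1.76, 2.22, 1.33, 1.81 and 2.12 refed. Its groups did not overlap in either genotype, with log2 changes of -0.79 (SE 0.19, adjusted p = 0.00155), or -0.46 in batch 2 alone, and -1.03 (SE 0.19, adjusted p = 2.08e-04). Slc25a2, an ornithine carrier, was low, at 0.368 ± 0.0293 and 0.209 ± 0.0528 CPM in wild type and 0.364 ± 0.115 and 0.161 ± 0.0933 in K556R. Its changes of -0.81 (adjusted p = 0.0473) and -1.09 (adjusted p = 0.0165) passed the threshold narrowly, and the wild-type call was lost in 14 of 20 fits that left out 1 library. Without repeat 1 of batch 1 in both K556R groups the K556R change of Slc25a2 was -0.82 (adjusted p = 0.0803). Slc25a26, which carries S-adenosylmethionine, fell by 0.27 (adjusted p = 0.030) in K556R and changed by -0.18 in wild type. Without those K556R libraries its K556R change was -0.24 (adjusted p = 0.0911), and leaving out single K556R libraries also ended the call of Slc25a26, at -0.21 (adjusted p = 0.0796) without fasted repeat 4 of batch 1. Slc25a38, a glycine carrier, did not pass in either, at 0.08 and 0.13.

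The members higher after refeeding in this group were Slc25a45 and Slc25a44, with Slc25a48 in K556R. Slc25a45 (chr19:5877808-5885878) had 15.7, 14.5, 21.0, 15.7 and 21.4 CPM in wild-type fasted livers and 30.9, 32.4, 30.4, 35.9 and 31.8 in refed ones. K556R livers had 13.9, 17.6, 16.4, 15.1 and 19.1 fasted and 27.7, 40.4, 34.96, 31.3 and 30.5 refed. The groups were apart, with log2 changes of 0.87 (SE 0.12, edgeR adjusted p = 4.35e-06) and 0.96 (SE 0.12, adjusted p = 3.32e-06). Batch 1 alone passed in each genotype, and batch 2 alone gave 0.58 and 0.76.

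Slc25a44 (chr3:88410498-88425139) brings branched-chain amino acids into mitochondria. Wild-type fasted livers had 71.9, 74.3, 69.6, 76.2 and 71.8 CPM and refed livers 93.5, 111, 112, 120 and 111. K556R livers had 69.8, 64.2, 77.3, 85.7 and 83.1 fasted and 65.1, 101, 107, 115 and 103 refed. The wild-type groups were apart, and the K556R overlap came from the refed library at 65.1 CPM. The log2 change was 0.59 (SE 0.11, edgeR adjusted p = 1.31e-04) in wild type. In K556R it was 0.29 (SE 0.11, adjusted p = 0.0427), and 0.45 (adjusted p = 4.21e-04) without that library. The K556R call was lost within batch 1 alone (0.16, adjusted p = 0.47) and in 14 of 20 fits that left out a library.

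Slc25a48, a choline carrier, did not pass the test in wild type, with 5.32, 6.06, 4.38, 5.005 and 5.51 CPM fasted and 5.85, 6.75, 5.11, 4.51 and 4.46 refed (log2 change 0.01, SE 0.14). K556R livers had 5.99, 5.11, 6.53, 5.68 and 5.36 CPM fasted and 10.4, 6.74, 6.08, 5.83 and 6.01 refed, a log2 change of 0.38 (SE 0.14, edgeR adjusted p = 0.0394). Without the library at 10.4 CPM, repeat 1 of batch 1, the change was 0.17 (adjusted p = 0.315). That library also had the highest sum of proliferation genes, whose part in the result was not tested.

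**Figure D4:**
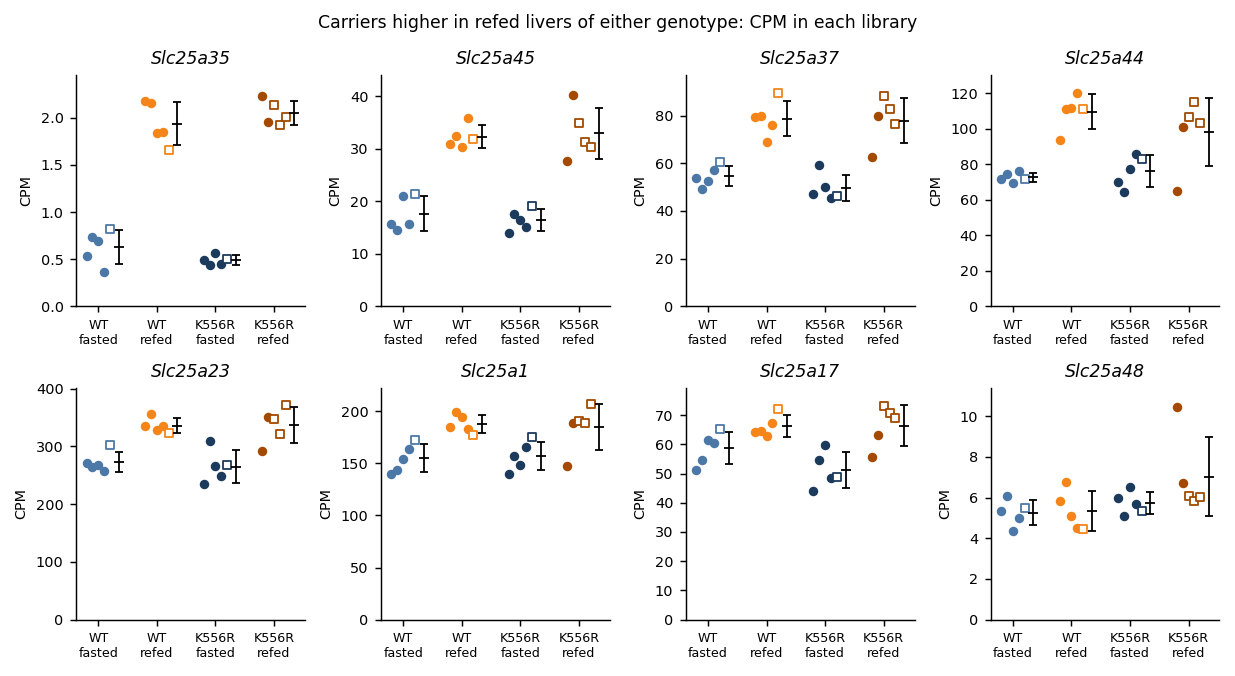
CPM of the 8 carriers called higher after refeeding in either genotype, 1 point per library (circles batch 1, open squares batch 2), with mean and SD of 5 libraries as a bar beside each group; each y axis starts at 0. Slc25a35, Slc25a45 and Slc25a37 are apart in both genotypes, and 1 K556R refed library is low for Slc25a44 at 65.1 CPM and high for Slc25a48 at 10.4 CPM.

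The mitoferrins import iron for heme and iron-sulfur cluster synthesis, and they moved in opposite directions. Mitoferrin 1, Slc25a37 (chr14:69241848-69285112), had 53.8, 49.4, 52.6, 57.2 and 60.4 CPM in wild-type fasted livers and 79.5, 79.8, 69.0, 76.0 and 89.4 in refed ones. K556R livers had 47.1, 59.2, 50.2, 45.6 and 46.3 fasted and 62.6, 79.8, 88.0, 82.8 and 76.3 refed. The groups did not overlap, with log2 changes of 0.52 (SE 0.09, edgeR adjusted p = 4.11e-05) and 0.59 (SE 0.09, adjusted p = 3.19e-05). Batch 1 alone passed in each genotype, and batch 2 alone gave 0.58 and 0.84 for Slc25a37. Mitoferrin 1 is known from red cell precursors, and erythroid markers summed to 173 to 205 CPM in wild-type fasted and 148 to 212 CPM in wild-type refed livers, 162 to 245 and 155 to 261 in K556R. Of 3 tested erythroid markers, 0 passed edgeR's test in either refeeding comparison. Mitoferrin 2, Slc25a28, had 22.9, 23.7, 21.1, 23.0 and 22.2 CPM fasted and 19.9, 17.3, 18.3, 15.5 and 15.8 refed in wild type (-0.38, SE 0.08, adjusted p = 7.66e-04). In K556R it had 19.8, 22.8, 23.1, 25.0 and 21.4 CPM fasted and 16.2, 21.9, 16.6, 17.4 and 18.6 refed, with overlap (-0.26, SE 0.09, adjusted p = 0.019). That change was lost within batch 1 alone (-0.25, adjusted p = 0.164), without K556R refed repeat 1 of batch 1 (-0.19, adjusted p = 0.0929) and, for Slc25a28, without K556R fasted repeat 1 of batch 2 (-0.26, adjusted p = 0.0538). The glutathione carriers Slc25a39 and Slc25a40 changed by 0.06 and 0.09 in wild type and 0.02 and 0.23 in K556R, none past the threshold.

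Slc25a46, the outer membrane member, which bears on mitochondrial shape and on lipid exchange with the endoplasmic reticulum, fell with a small spread. Fasted wild-type livers had 52.7, 53.4, 55.2, 61.0 and 54.5 CPM and refed livers 32.7, 33.9, 29.5, 32.9 and 37.3. K556R livers had 56.6, 58.3, 62.5, 55.1 and 48.9 fasted and 37.6, 30.1, 38.2, 38.7 and 30.8 refed. The groups did not overlap, with log2 changes of -0.74 (SE 0.08, edgeR adjusted p = 7.38e-07) and -0.69 (SE 0.09, adjusted p = 4.73e-06). Batch 2 alone gave -0.54 in wild type.

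Carriers that pair as close relatives were set side by side. The members of a pair were called in opposite directions in both genotypes for Slc25a34 and Slc25a35 (-2.41 and 1.61 in wild type), Slc25a25 and Slc25a23 (-1.69 and 0.30), and Slc25a28 and Slc25a37 (-0.38 and 0.52). In other pairs 1 member fell and the other did not pass in wild type: Slc25a33 and Slc25a36 (-1.72 and -0.39), Slc25a42 and Slc25a16 (-0.99 and -0.16), Slc25a13 and Slc25a12 (-0.32 and 0.06), and Slc25a30 and Slc25a14 (-2.60 and -0.29). Neither member passed in wild type for Slc25a4 and Slc25a5 (-0.05 and 0.15), Slc25a39 and Slc25a40 (0.06 and 0.09), or Slc25a10 and Slc25a11 (0.34 and 0.12). Slc25a24, set beside both Slc25a23 and Slc25a25, did not pass either (-0.48). Pairs that hold Slc25a18 or Slc25a47 had a member without a test. The differences within pairs were not tested.

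K556R and wild type did not differ past the threshold for any of the 37 tested carriers in fasted livers, in refed livers, averaged over both or in the interaction of genotype and feeding. By edgeR's quasi-likelihood test 0 members and 0% of all genes were called in fasted livers, 0 members and 0% in refed livers, 0 members and 0.0288% of genes averaged over both, and 0 members and 0% in the interaction. DESeq2 and limma also called 0 members in these comparisons, while DESeq2 called 68, 6, 41 and 1 of all genes and limma 2, 0, 6 and 0. At an unadjusted p under 0.05 there were 2, 3, 4 and 1 members of 37, beside 1136, 693, 1288 and 553 of 13894 genes. The lowest adjusted p of a member was 0.492, 0.818, 0.330 and 1.00. The wild-type groups and the K556R groups enter more than 1 of these comparisons, so their values are not independent.

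**Figure D5:**
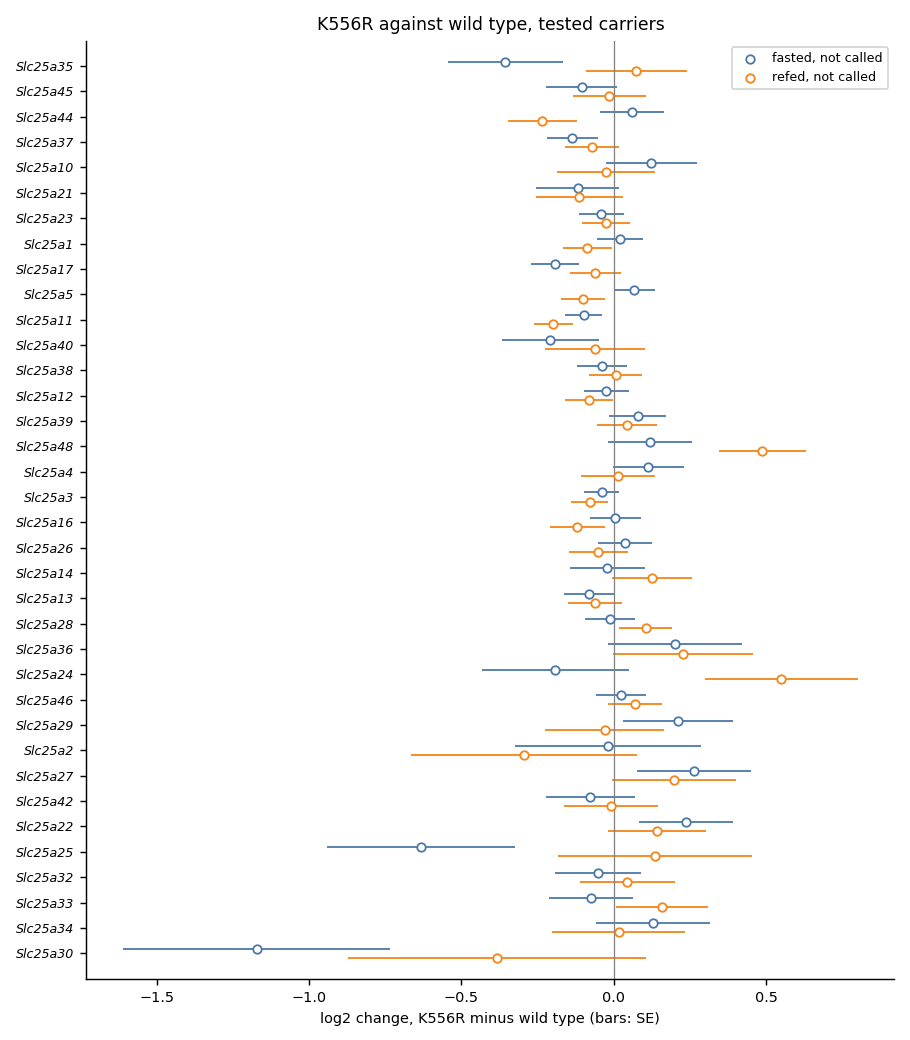
Log2 change, K556R minus wild type, of the same carriers with SE bars, in fasted (blue) and refed (orange) livers, in the order of the refeeding plot; all points are open because none had an adjusted p under 0.05. Most points lie near 0, and Slc25a30 and Slc25a25 in fasted livers have the most negative values, at -1.17 and -0.63, with wide bars.

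Several of the genotype values farthest from 0 shrank when 1 library was left out. In fasted livers Slc25a30 had 67.8 ± 63.2 CPM in wild type and 30.0 ± 11.1 in K556R (SD, n = 5), a log2 change of -1.17 (SE 0.44, edgeR adjusted p = 0.492), and -0.41 without the wild-type library at 179 CPM. It was also lower in refed K556R livers, at 8.03 ± 1.51 CPM against 11.2 ± 3.36 in wild type. That log2 change, -0.38, was the most negative of the members in refed livers. Averaged over feeding states the Slc25a30 change was -0.78 (edgeR adjusted p = 0.471), and -0.45 without the same library. In fasted livers Slc25a25 had 628 ± 275 and 404 ± 64.5 CPM, a change of -0.63 (SE 0.31, adjusted p = 0.623), and -0.41 without the wild-type library at 994 CPM. Slc25a17 had 58.7 ± 5.59 and 51.2 ± 6.19 CPM (-0.19, SE 0.08, adjusted p = 0.512). Slc25a22 had 297 ± 70.3 and 345 ± 62.0 CPM (0.24, adjusted p = 0.768). In batch 2 alone, with 1 library per fasted group and so no spread of its own, its change was 0.87. That of Slc25a34 there was 0.85, while batch 1 alone gave 0.09 for Slc25a22 and -0.02 for Slc25a34. Slc25a27 and Slc25a29 had positive values in fasted livers, 0.26 (SE 0.19, adjusted p = 0.799) and 0.21 (SE 0.18, adjusted p = 0.851), and the Slc25a29 value was 0.06 without K556R fasted repeat 4 of batch 1. Slc25a35 had 0.628 ± 0.183 CPM in wild type and 0.491 ± 0.0511 in K556R (-0.36, SE 0.19, adjusted p = 0.666).

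In refed livers the lowest unadjusted p belonged to Slc25a48, with 5.34 ± 0.968 CPM in wild type and 7.02 ± 1.95 in K556R (log2 change 0.49, SE 0.14, edgeR adjusted p = 0.818), and 0.28 without the K556R library at 10.4 CPM. Slc25a24 had 0.811, 0.689, 0.734, 0.670 and 0.712 CPM in wild type and 1.73, 0.571, 0.760, 1.07 and 0.962 in K556R (0.55, SE 0.25, adjusted p = 0.965), and 0.15 without the same library, at 1.73 CPM. Slc25a11 had the narrowest spread of these: 92.8, 89.7, 86.7, 82.5 and 98.0 CPM in wild type and 76.5, 77.0, 84.4, 83.7 and 82.4 in K556R. Its change was -0.20 (SE 0.06, adjusted p = 0.915), -0.20 within batch 1 and -0.24 within batch 2, and averaged over feeding states it was -0.15 (SE 0.04, adjusted p = 0.330). For the interaction, Slc25a30, Slc25a25 and Slc25a24 had the largest values at 0.79 (SE 0.65), 0.77 (SE 0.44) and 0.74 (SE 0.35), each with adjusted p of 1.00. Without wild type fasted repeat 3 of batch 1 the Slc25a30 value was -0.08 and the Slc25a25 value 0.53. Without K556R refed repeat 1 of batch 1 the Slc25a24 value was 0.33. Slc25a44 had the most negative interaction, -0.29 (SE 0.15), and -0.14 without that library.

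Genes that work beside the carriers were described from fixed lists. Over all genes tested, 20.9% were higher and 24.2% lower after refeeding in wild type, and 19.6% and 20.3% in K556R. The lists are short, and their counts were not tested against these shares. Among 12 proteins that import carrier precursors into the inner membrane, 3 were higher and 1 lower after refeeding in wild type (median log2 change 0.02), and 2 were higher and 2 lower in K556R (median -0.03). Agk, a subunit of the TIM22 complex, rose by 0.69 and 0.81 on the log2 scale (edgeR adjusted p = 5.85e-05 and 1.99e-05), Timm8b, a small chaperone of the intermembrane space, by 0.44 and 0.26 (adjusted p = 5.50e-06 and 0.00236). Timm22, the channel itself, rose by 0.22 in wild type (adjusted p = 0.0174) and changed by 0.15 in K556R (adjusted p = 0.132). Of 22 tested other mitochondrial transport proteins, 8 were higher and 1 lower in wild type (median 0.06) and 4 higher and 3 lower in K556R (median 0.03). Abcb10, an inner membrane ABC protein of heme synthesis, rose by 0.45 and 0.59. Abcb6 fell by 0.28 and 0.19. Of 12 enzymes that use the carried metabolites, 5 were higher and 1 lower in wild type (median 0.13) and 2 higher and 2 lower in K556R (median 0.02). Acly, which cleaves exported citrate, rose by 2.55 and 2.17 (adjusted p = 2.01e-09 and 3.19e-08), beside 0.28 and 0.18 for the citrate carrier. Got1, the cytosolic aminotransferase of the malate-aspartate shuttle, fell by 2.00 and 2.02 (adjusted p = 3.11e-06 and 5.81e-06), beside -0.32 and -0.30 for citrin. Cs, citrate synthase, rose by 0.60 and 0.32 (adjusted p = 2.82e-05 and 0.0137).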

How the data were processed

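The authors deposited 1 table of raw read counts per gene symbol for the 20 libraries, and all columns were used. Per the submitters' processing notes the build was mm10, and the tools named are TopHat, STAR, STAR-Fusion, HTSeq, edgeR and DESeq2. The sources used here give no versions, annotation or strand setting and do not say which tool counted. Per the labels' protocols, poly-A RNA libraries were directional or non-directional, so reads of overlapping genes on opposite strands, which 12 members have, cannot be told apart, and reads shared by related carriers are uncertain. Positions and exon lengths are from GENCODE M21 (GRCm38).

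Counts were fitted with edgeR 4.0.16 (R 4.3.3) by the robust quasi-likelihood F test, after filterByExpr (minimum count 10, total 15) and TMM scaling, in 1 model of all 20 libraries with group and batch. p-values were adjusted by Benjamini-Hochberg over 13894 genes, threshold 0.05. CPM use TMM-scaled totals. The script was tested on simulated data. Within groups, library counts differed beyond sampling noise (lowest chi-square per degree of freedom 11.7), so none was counted as a duplicate. Alternatives were DESeq2 1.42.0, limma 3.58.1, other filters and scaling, no batch term, single batches, a replicate block and left-out libraries.

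The members and lists were chosen with earlier results of these data known. Values per library were given, by rule, for the 8 members with the lowest p among calls in each direction of each refeeding comparison, for 3 per direction, ranked by p, of each genotype comparison and the interaction, and for the 3 highest per kb; other members were named as up to 4 per role, and up to 3 genes of each other list, by lowest p in wild-type refeeding. Members outside the rule were named after their values were seen. The values of 1 member and 1 gene of another list are not reported here; both are in the counts.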

Additional observations from a re-analysis of the deposited data

Results flagged for a closer look

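In each group of 5, the gap between the highest or lowest library and its nearest neighbour was set against the group's range by Dixon's test at the 95% level. Of 92 groups (23 named members in 4 groups), 5 had such a library, and chance gives about 1 in 20. Slc25a30 had 178.564 CPM in wild type fasted repeat 3 of batch 1, against 25.3 to 55.9 in the other 4. Slc25a44 had 65.1312 CPM in K556R refed repeat 1 of batch 1, against 101 to 115. In that same library Slc25a48 had 10.447 CPM against 5.83 to 6.74, and Slc25a27 had 2.1896 CPM against 1.11 to 1.31. Slc25a5 had 478.027 CPM in wild type refed repeat 3 of batch 1, against 444 to 452. Of the 5, 3 belong to the library with the highest sum of proliferation genes. The named members were mostly picked by low p in comparisons that use these libraries, so that count is a description only.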

How the results depend on the processing

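Calls after refeeding kept their sign under every alternative in which the member was tested. Members higher in wild type (6) were 10 with DESeq2, 10 with limma, 11 with a filter of CPM 1 in 5 samples, 10 without repeat 1 of batch 1 in both K556R groups, and 6 to 10 when 1 library was left out. Batch 2 alone was chosen after seeing the data, and its spread comes only from the 3 K556R refed libraries, since each other group has 1 library assumed to vary like them; its calls are no independent test. With it, members higher and lower in wild type were 3 and 6, members lower in K556R were 9, and all genes called were 1144 in wild type (6263 in the full fit) and 2702 in K556R (5543). With batch 1 alone 4 members were higher in K556R. In 20 fits that left out 1 library, 18 of 19 wild-type calls (not Slc25a2) and 13 of 22 K556R calls always passed; Slc25a44 failed in 14, Slc25a25 in 8, Slc25a48 in 5 and Slc25a26 in 4. The cause was not tested.

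Of all genes, K556R against wild type in fasted livers gave 68 calls with DESeq2, 2 with limma, 220 in batch 2 alone (with 2 members higher), 1 without the K556R repeats 1 of batch 1, and 0 to 2 with 1 library left out. In refed livers there were 6 with DESeq2, 12 in batch 2 alone, 3 with only the groups compared, and 0 to 1 with 1 library left out. Averaged over feeding states, 4 became 41 with DESeq2, 2 with no batch term, 0 in batch 1 alone, 156 in batch 2 alone, 0 with a replicate block, 0 without those libraries and wild type fasted repeat 1 of batch 2, and 3 to 13 with 1 library left out. The interaction gave 1 with DESeq2 and 21 in batch 2 alone. Signs were checked only for the members picked by p in each comparison. Among these, the refed genotype change of Slc25a5 changed sign (0.00712 in batch 2 alone). So did the averaged change of Slc25a27 (-0.0393 without those libraries and wild type fasted repeat 1 of batch 2) and the interaction of Slc25a25 (-0.107 in batch 2 alone). Outside that check, the interaction of Slc25a30 was -0.08 without wild type fasted repeat 3 of batch 1. The fasted genotype change of Slc25a34 had opposite signs in batch 1 alone and batch 2 alone.

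Same-numbered libraries did not as a rule deviate together: over 18 pairs the correlation ran from -0.25 to 0.63 with a median of -0.02. The highest, 0.63, was between K556R fasted and K556R refed repeat 1 of batch 1, the libraries that stand apart. Batch 1 holds only repeats 1 and 2 of K556R refed, so their deviations mirror each other and their pairs are not independent. The numbers were not taken to pair samples in the main fit. With the replicate block 6 members were higher and 13 lower in wild type and 5 higher and 11 lower in K556R, where Slc25a13, Slc25a25, Slc25a26, Slc25a28, Slc25a44 and Slc25a48 no longer passed.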

Other observations

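Rows under older symbols of carriers lie outside the choice of members, and they were looked at after their values were seen. Mcart1, an older symbol of Slc25a51, the mitochondrial NAD+ carrier, had 300 ± 81.9 CPM in wild-type fasted livers and 67.6 ± 7.44 in refed ones, and 307 ± 61.9 and 76.3 ± 12.6 in K556R (SD, n = 5). Its log2 change with refeeding was -2.12 (SE 0.17, edgeR adjusted p = 2.24e-08) in wild type and -1.91 (SE 0.18, adjusted p = 1.75e-07) in K556R. The row 9130208E07Rik, another older symbol of Slc25a51, fell by 2.12 and 2.06 from a lower level, 31.0 ± 9.18 to 6.92 ± 0.991 CPM in wild type. Hdmcp, an older symbol of the liver carrier Slc25a47, had 7.46, 12.3, 17.4, 17.2 and 15.2 CPM in wild-type fasted livers and 4.98, 3.52, 4.92, 3.93 and 7.29 in refed ones, and its change was -1.53 (SE 0.27, adjusted p = 1.64e-04) in wild type and -1.97 (SE 0.28, adjusted p = 2.63e-05) in K556R. The row named Slc25a47 held 0 counts in the same libraries. Mcart6, an older symbol of Slc25a53, changed by -0.48 (adjusted p = 0.0258) and -0.11 (adjusted p = 0.643).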
